A study of Mus musculus with 122 samples.

Results

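Depletion of endogenous CTCF without any transgene expression was examined in the mouse embryonic stem cell line that carries a CTCF transgene, called the CTCF line here, by comparing 3 RNA-seq libraries of cells given indole-3-acetic acid (IAA) alone (I) with 2 libraries of untreated cells (U). The members were chosen by condition, as all RNA-seq libraries labelled CTCF U or CTCF I, and they are 5 of the 122 samples of the series and 5 of its 38 RNA-seq libraries. All 5 come from E14Tg2a cells (129/Ola, XY) in which both Ctcf alleles carry an auxin-inducible degron (AID) with eGFP, OsTIR1 is expressed from Rosa26, and a Flag-CTCF-mRuby2 transgene sits at Tigre under doxycycline (Dox) control, uninduced in both groups. I cells received 500 µM IAA, for 24 h according to the sample labels and for 2 days according to the treatment protocol. IAA was given with the degron in every treated sample, so an effect of IAA itself and loss of CTCF cannot be told apart. The cells were grown without feeders in serum medium with leukemia inhibitory factor and inhibitors of GSK3 and MEK, and the line is a selected clone. Libraries given Dox alone (D, n = 3) or IAA with Dox (ID, n = 3) are used beside them, as are I and U libraries of 3 other clones, called CTCFL, LCL and CLC after the CTCFL or CTCF-CTCFL chimera transgene each carries uninduced.

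CTCF is a zinc finger protein that binds a directional DNA motif and halts cohesin as it extrudes chromatin loops, which gives rise to loop anchors and boundaries of topologically associating domains. It also binds close to the start sites of many genes. In the degron system IAA leads TIR1 to mark the AID-tagged protein for the proteasome, so the protein is lost while its mRNA need not change. In embryonic stem cells CTCF is needed for growth, and it is known for regulating imprinted genes, Hox clusters and the promoter choice of clustered protocadherins.

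Levels are given as normalized counts, that is, gene counts that the authors divided by a size factor for each library. Fold changes are differences of log2(normalized count + 1), I less U, and a gene counts as called where limma gave an adjusted p under 0.01 (Benjamini-Hochberg over 16705 genes) together with a log2 difference larger than 1, up or down. The labels do not say that replicates came from separate cultures. P-values therefore measure the spread between libraries, pooled over U, I, D and ID of this line, and that spread may be technical. Between 20926219 and 28917040 reads per library were recovered from the table for U and I, and replicates of a group differed by more than sampling noise. I replicate 1 and U replicate 2 stood somewhat apart, at -54 on the second principal component against -29 and -28.4 in the other I libraries, and at -21.4 against -5.6 in U replicate 1. Ctcf itself was at 4712 and 4691 in U and at 4622, 4371 and 4231 in I (log2 fold change -0.09, adjusted p = 0.298), and since the degron acts on the protein this cannot check depletion. In the libraries labelled D and ID, in which the transgene should add Ctcf mRNA, Ctcf was no higher, at 3550 to 3850 and 3910 to 4142 respectively, so these are named below by their labels. Among markers of embryonic stem cells, Nanog, Pou5f1, Klf4, Tfcp2l1 and Dppa5a had mean levels between 8698 and 41984 in U. In I they lay between 9235 and 35364, and none of them was called. Sox2 and Esrrb, markers of the same set, were called lower in I and are described below. Zfp42 also belongs to the set, and its values are not reported here.

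From U to I, 1824 genes changed, 10.9% of those tested, against 1642 genes when the U and I libraries alone were fitted. In I, 835 genes (5%) were higher and 989 (5.92%) were lower than in U, and the median over all genes was 0.03. An adjusted p under 0.01 alone was reached by 5168 genes (30.9%). The genes that fell furthest lost nearly all of their mRNA. Cc2d2a, which encodes a protein of the ciliary transition zone, was at 363 and 389 in the U libraries and at 9.68, 6.82 and 5.03 in the I libraries (log2 fold change -5.56, SE 0.31, adjusted p = 2.32e-08). Prss41, a serine protease gene of the germ line, stood at 111 and 118 in U and at 2.90, 3.41 and 0 in I (log2 fold change -5.48, SE 0.51, adjusted p = 1.74e-06). In both genes every U library lay above every I library by more than an order of magnitude. Genes named by size were chosen among those without overlap of U and I, which held for 59.5% of all genes tested. The sodium-activated potassium channel gene Kcnt2 fell from 148 and 256 to 4.84, 5.68 and 2.51 (log2 fold change -5.25), and the voltage-gated sodium channel gene Scn3a from 134 and 172 to 1.94, 5.68 and 6.71 (-4.84). For the neuronal RNA-binding protein gene Elavl4 the recovered reads were 112 in U against 3 in I, a ratio of 62.8 with a 95% counting interval of 21 to 309. Nkd2, whose product restrains Wnt signalling by binding Dishevelled, fell from 49.98 and 97.2 to 1.94, 4.54 and 0, and its U libraries differed from each other more than those of the genes above. Of the 12 genes with the largest decrease, Tmtc2 (-4.77), Mob3b (-4.62), Gulp1 (-4.44), Ccbe1 (-4.17), Syt1 (-4.15) and Pcdhga11 (-4.07) complete the list.

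The genes that rose furthest did so by less. Dppa1, named for its expression in pluripotent cells, was at 5.32 and 7.73 in U and at 96.8, 107 and 119.9 in I (log2 fold change 3.87, SE 0.41, adjusted p = 6.39e-06). The proneural transcription factor gene Atoh1 was at 24.5 and 19.9 and at 226, 265 and 269 (log2 fold change 3.46, SE 0.23, adjusted p = 8.73e-08). Dio3, an imprinted gene whose enzyme inactivates thyroid hormone, stood at 84.01 and 71.8 in U and at 835, 815 and 806 in I (log2 fold change 3.38, SE 0.17, adjusted p = 6.84e-09). In all 3 genes the I libraries lay close together. Members of the oligoadenylate synthetase family, known as interferon-induced sensors of double-stranded RNA, were among the 12 with the largest increase, with Oas1e at 4.25 and 6.63 in U and 83.2, 59.1 and 59.5 in I, and Oasl2 at 4.25 and 3.31 and 60.02, 43.2 and 49.5. Oasl2 was no longer called when any 1 of 4 libraries was left out (both U libraries and I replicates 2 and 3). Serpinb9, whose product inhibits granzyme B, rose from 62.7 and 53.03 to 489.8, 516 and 485, and Htr5a, a serotonin receptor gene, from 6.38 and 13.3 to 104, 115 and 79.6. I replicate 1 was lower than the other I libraries for 3 of these genes, though above both U libraries, which the choice of genes required. It was at 380.4 against 866 and 863 for Ocel1, 194 against 385 and 422 for the metallothionein gene Mt4, and 74.5 against 206 and 148 for Dbil5. Bex6 (3.16) and Epn3 (2.86) were the other 2 of the 12.

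Abundant genes changed as well. Among called genes with the highest levels, Calcoco2, which encodes an autophagy receptor, rose from 1808 and 1742 to 7907, 8584 and 8948 (log2 fold change 2.25, SE 0.08, adjusted p = 2.06e-09). Stra8, the retinoic acid-responsive gatekeeper of meiosis, rose from 2309.8 and 2107 to 7083, 7368 and 7629.5 (log2 fold change 1.74, SE 0.08, adjusted p = 4.55e-09). Dppa3 (1.25), Atad2b (1.08), the aquaporin gene Aqp3 (1.71), Igf2 (1.08), Mylpf (1.57) and Tex19.1 (1.02) were the other abundant genes that rose. Of the abundant genes that fell, Esrrb, an orphan nuclear receptor gene of the naive pluripotency network, dropped from 22521 and 24495 to 9556, 9548 and 9653 (log2 fold change -1.29, SE 0.07, adjusted p = 1.81e-08). Sox2 fell from 16759 and 15269 to 7152, 7894 and 7990.0 (log2 fold change -1.06, SE 0.11, adjusted p = 4.14e-06), the basement membrane gene Lama1 from 24647 and 26776 to 13390.5, 11403 and 12930.5 (-1.03), and the cytoskeletal linker gene Dst from 10321 and 12583 to 5863, 4262 and 4052 (-1.29). The aminoacyl-tRNA synthetase genes Nars (-1.16) and Lars (-1.29) fell too, as did the phosphofructokinase gene Pfkp (-1.17) and Txnip (-1.04). These sit near the minimum fold change, and without U replicate 1 Sox2 was at -0.99 and was not called.

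**Figure D1:**
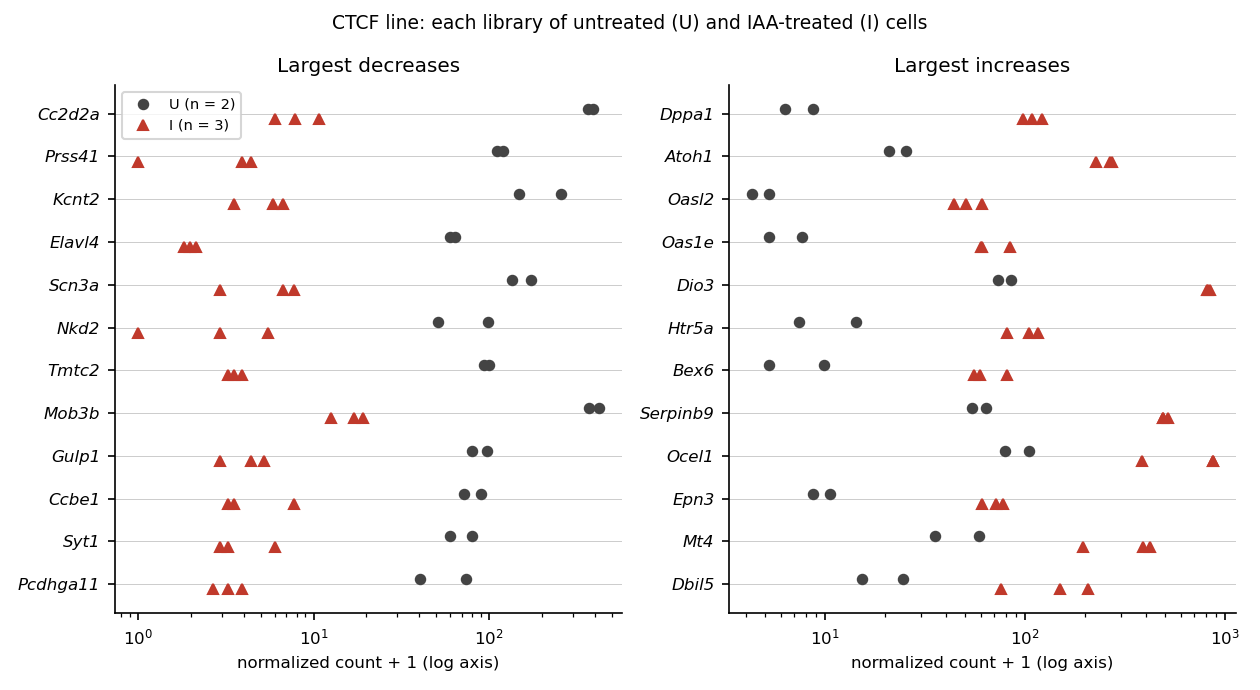
Normalized counts (log scale) of named genes in each of the 2 U and 3 I libraries of the CTCF line, each point a library. The genes drawn were chosen among those without overlap of U and I libraries, which held for 59.5% of all genes tested. For Ocel1, Mt4 and Dbil5 a single I library, replicate 1, lies below the other I libraries.

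The promoters of the genes that fell carried CTCF more often than those of other genes. Binding was read from the FLAG ChIP-seq of the same line given Dox, which recovers the transgenic protein and not the endogenous CTCF that IAA removes. A promoter was taken as bound if the centre of any of the 37154 sites found in both replicates lay 3 kb or less from a start, which held for 38.9% of 16248 genes tested, for 38.4% of 810 genes higher in I and for 49.7% of 970 genes lower in I. With this 3 kb limit, the excess among lowered genes was seen in genes whose genomic span is under 100 kb. For spans under 10 kb, 66.3% of lowered genes had a site against 36.2% of genes tested, and for 10 to 50 kb 64.8% against 41.1%. Above 200 kb the figures were 43% and 46.6%. No test was run on these shares, since genes are not replicates of the condition.

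Within the genes under 100 kb, the share of lowered genes differed with the distance from a site to the start. Of those with the middle of a site within 100 bp of a start, 8.87% were lower in I, against 7.68% at 100 to 250 bp, 3.95% at 250 to 500 bp, 2.72% at 500 bp to 1 kb, 1.57% at 1 to 3 kb and 1.81% beyond 10 kb. The share of genes higher in I moved the other way, from 4.17% within 100 bp to 6.21% at 1 to 3 kb. In genes under 100 kb the share of lowered genes thus fell with each step of distance up to 3 kb. In genes over 100 kb it was 45.9% within 100 bp, between 26.7% and 31% from 100 bp to 10 kb, and 37.5% beyond 10 kb.

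Motif orientation was examined in RefSeq promoters (GRCm38.p6, 250 bases before to 50 after the start), which matched 11670 genes tested by symbol. The core of the CTCF motif was searched on both strands as 12 bases, which read CC, any 3 bases, AG, any 2 bases and GGC from 5′ to 3′. It was in 8.61% of all 32851 promoters of this length, in 14.6% of genes tested, in 11% of 547 genes higher in I and in 19.6% of 719 genes lower in I. The class with the largest share of lowered genes held the motif on the strand of the gene, within the 100 bases before the start and inside a CTCF site. Of its 166 genes, 44 were lower in I (26.5%, against 6.16% of all 11670) and 2, Ptprn and Ehd2, were higher, with a median log2 fold change of -0.31. With the motif on the opposite strand in the same interval, 11.2% of 89 genes were lower, and with the motif on the strand of the gene but outside any CTCF site, 5.57% of 287 genes were lower. At 0 to 50 bases after the start the order of the strands was turned, with 13.8% of 29 genes lower for the strand of the gene and 20.7% of 29 for the opposite strand, inside a site. A median of 0.04 was found for the same strand in a site at 100 to 250 bases before the start, where 9.09% of 121 genes were lower. The class was defined after these results had been seen, and a match in the promoter is a description and not a mapped binding site.

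**Figure D2:**
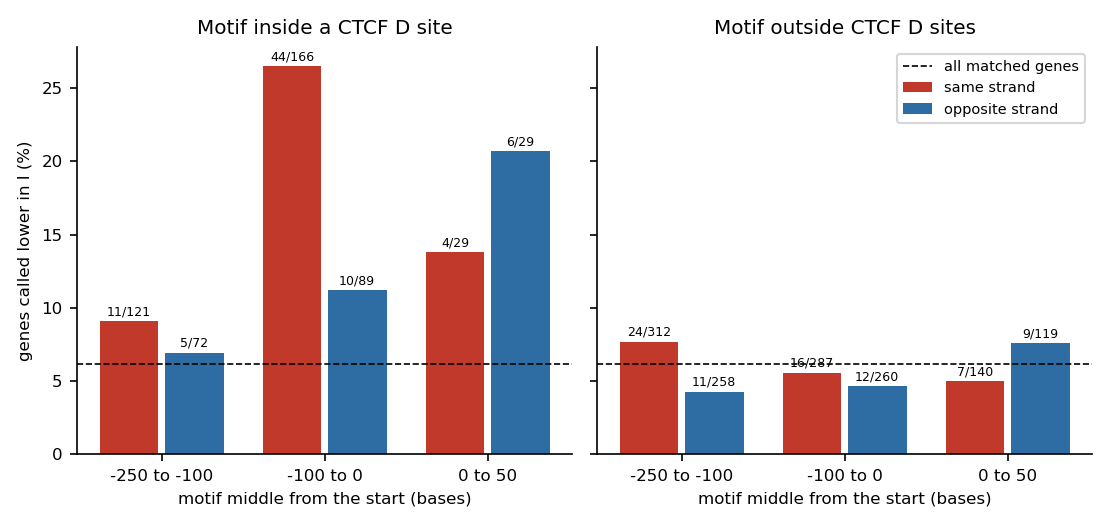
Percent of genes called lower in I (y axis) by the distance from the motif to the start site in bases (x axis), its strand (red for the strand of the gene, blue for the opposite strand) and whether it lies inside (left) or outside (right) a transgenic CTCF site, with the counts above each bar. The bar for the strand of the gene within the 100 bases before the start, inside a site, stands at 26.5%, and the dashed line marks the 6.16% of all genes matched to a promoter.

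The promoters of 2 lowered genes of this class show the arrangement, each printed as the 250 bases before the start (RefSeq, GRCm38.p6) with the motif in capitals. That of Prss41 is at chr17:23844157-23844406 on the minus strand, with the middle of the motif at -47 from the start, and that of B3glct, which encodes a glucosyltransferase of O-linked glycans, is at chr5:149677980-149678229 on the plus strand with the motif at -14.
Prss41: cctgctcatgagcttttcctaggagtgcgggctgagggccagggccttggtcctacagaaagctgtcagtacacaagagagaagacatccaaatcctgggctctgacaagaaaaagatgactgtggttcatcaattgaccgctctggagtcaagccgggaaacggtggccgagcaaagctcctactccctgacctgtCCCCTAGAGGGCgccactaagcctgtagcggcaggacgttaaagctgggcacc
B3glct: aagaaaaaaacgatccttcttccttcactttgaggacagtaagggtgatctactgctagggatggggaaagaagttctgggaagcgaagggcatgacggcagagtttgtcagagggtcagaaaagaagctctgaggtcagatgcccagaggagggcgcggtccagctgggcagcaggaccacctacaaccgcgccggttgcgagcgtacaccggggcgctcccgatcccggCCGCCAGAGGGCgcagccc
The CTCF site at Prss41 had a fold enrichment of 4.97 and 2.86 in the ChIP replicates of D, and that at B3glct 8.55 and 7.27. B3glct was at 652 and 690.5 in U and at 60.98, 82.9 and 63.7 in I (log2 fold change -3.27, SE 0.15, adjusted p = 4.55e-09), with no overlap of the groups. In the libraries labelled ID it was at 178, 217 and 186, above every I library and below both U libraries.

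Shorter stretches of 40 bases around the motif (GRCm38.p6, in the 5′ to 3′ direction of the gene, motif in capitals) allow the letters to be compared among 8 more genes of the class, picked after their values were seen. All but the last, Ehd2, were lower in I. They lie at chr2:12301997-12302036 (minus strand), chr7:78847219-78847258 (minus), chr2:24962359-24962398 (plus), chr3:89246353-89246392 (plus), chr3:67430017-67430056 (plus), chr4:126321734-126321773 (minus), chr8:22192741-22192780 (plus) and chr7:15967547-15967586 (minus).
Itga8: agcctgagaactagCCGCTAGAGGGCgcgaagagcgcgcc
Det1: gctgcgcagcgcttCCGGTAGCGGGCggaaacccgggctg
Dph7: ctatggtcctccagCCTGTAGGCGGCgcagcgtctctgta
Krtcap2: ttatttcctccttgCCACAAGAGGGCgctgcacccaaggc
Gfm1: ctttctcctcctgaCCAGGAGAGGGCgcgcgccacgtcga
Adprhl2: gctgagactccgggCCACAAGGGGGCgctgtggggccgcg
Vps36: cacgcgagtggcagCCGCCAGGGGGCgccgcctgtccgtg
Ehd2: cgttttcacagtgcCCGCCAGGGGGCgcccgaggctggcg
Vps36, a subunit of the ESCRT-II complex, and Ehd2, a membrane-shaping ATPase, hold the same 12 letters, and their levels moved in opposite directions. Vps36 was at 1647 and 1479 in U and at 526, 574 and 476 in I (log2 fold change -1.57, SE 0.10, adjusted p = 4.21e-08). Ehd2 was at 37.2 and 45.3 in U and at 124, 128 and 153 in I (log2 fold change 1.69, SE 0.17, adjusted p = 4.78e-06).

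The other 6 were all called lower in I and do not show the full range of the class. Krtcap2, a subunit of the oligosaccharyltransferase, stood at 1491 and 1118 in U and 227, 378 and 340.3 in I, and at 1342, 1638 and 1592 in the libraries labelled ID (log2 fold change -2.06, SE 0.18, adjusted p = 1.23e-06). Dph7, an enzyme of diphthamide synthesis, was at 491 and 456 in U, 106, 92.02 and 103 in I and 393, 386 and 422 in ID (log2 fold change -2.23, SE 0.11, adjusted p = 6.17e-09). In both, I lay below U and ID without overlap, and Krtcap2 in ID overlapped U. Gfm1, a mitochondrial elongation factor, fell from 2729.9 and 2820.4 to 791, 794 and 803 (log2 fold change -1.80), Adprhl2, an ADP-ribosyl hydrolase, from 702 and 745 to 204, 214 and 207 (-1.79), Det1, a ubiquitin ligase component, from 325 and 330.3 to 73.6, 49.98 and 72.9 (-2.33), and the integrin gene Itga8 from 73.4 and 57.5 to 4.84, 4.54 and 4.19 (-3.58). Of the 166 genes in the class, 114 were lower in I by any amount, 96 had I libraries all below U and 35 had I libraries all above U, where 59.5% of all genes tested had no overlap of U and I in either direction. Most of the class was therefore not called, and 32 of the 44 called lower were among its 145 genes with a span under 100 kb.

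Lowered genes had longer genomic spans than other genes. Among 14217 protein-coding genes tested, the median distance from the first to the last annotated base was 23.7 kb, against 11.2 kb for those higher in I and 158 kb for those lower. Of 665 genes over 200 kb, 370 were lower in I (55.6%) and 1, Dpf3, was higher (0.15%), with a median log2 fold change of -1.30. At 100 to 200 kb 20.1% of 1193 genes were lower (median -0.45), and at 50 to 100 kb 3.96% of 2047. In the 3524 genes under 10 kb the order was turned, with 9.36% higher and 2.36% lower and a median of 0.24. The annotation lists 995 protein-coding genes over 200 kb, of which 990 are in the table and 665 passed the minimum mean over the line. Since a gene high only in U can pass that minimum, the 579 with a mean of at least 10 in I as well were also examined, and their median was -1.14.

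The decrease in long genes was present in each library. Over the genes above 200 kb the median log2 difference from the mean of U was -1.15, -1.31 and -1.29 in the I libraries, and -0.16, -0.06 and -0.20 in the libraries labelled D. The U libraries themselves were at -0.05 and 0.05. For genes under 10 kb the I libraries were at 0.11, 0.31 and 0.32 and the D libraries between 0.13 and 0.22, so I replicate 1 lay below the D libraries and the other I libraries above them. Of the 665 genes, 602 had no overlap of U and I, 576 of them lower in I, where 59.5% of all genes tested had no overlap in either direction. The exonic length, which sets the size of the mRNA, was longer in lowered genes as well (median 6.64 kb against 4.31 kb of all tested), and within 3 classes of exonic length the median of genes over 200 kb was -1.27, -1.33 and -1.29. The part of exonic length in the decrease was not tested further.

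**Figure D3:**
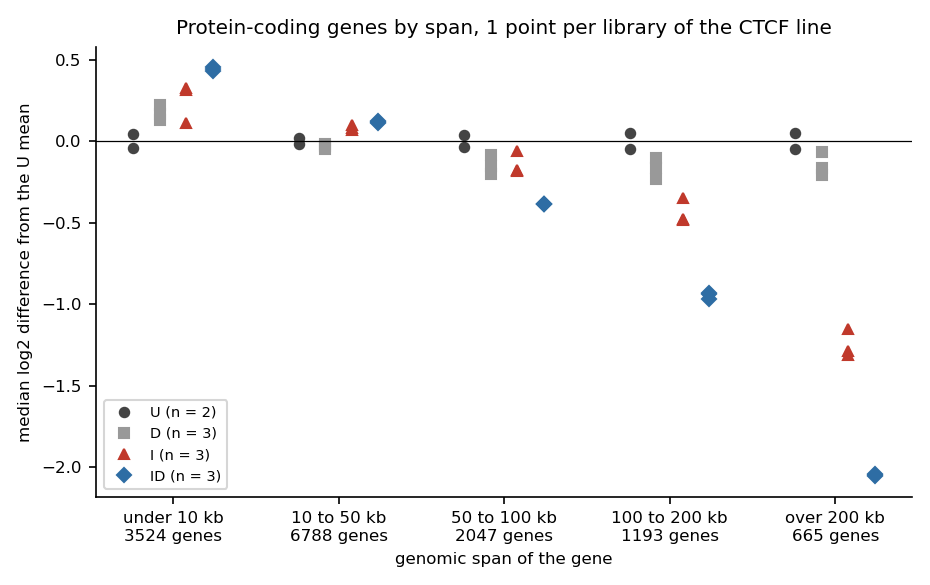
Median log2 difference from the mean of U (y axis) over protein-coding genes in 5 classes of genomic span (x axis), with a point for each U, I, D and ID library. In the class over 200 kb the I libraries sit between -1.15 and -1.31 and the ID libraries near -2.05, below all U and D libraries.

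The teneurin gene Tenm4 (739.8 kb), which codes for a synaptic adhesion protein, was at 1459 and 1497 in U and at 118, 109 and 115 in I (log2 fold change -3.69, SE 0.16, adjusted p = 3.84e-09). The sialyltransferase gene St6galnac3 (527 kb) was at 625 and 664 and 43.6, 42.03 and 51.97 (log2 fold change -3.79, SE 0.18, adjusted p = 4.55e-09). Both dropped by more than an order of magnitude in every I library. The glypican gene Gpc6, which spans 1051 kb, fell from 185 and 226 to 14.5, 6.82 and 14.2 (-4.07), the receptor phosphatase gene Ptprd, which spans 2271 kb, from 59.5 and 67.4 to 2.90, 6.82 and 2.51 (-3.76), and the ryanodine receptor gene Ryr2 from 301 and 360.1 to 36.8, 20.4 and 16.8 (-3.76). The exceptions at this span were few. Dpf3, a subunit of the BAF chromatin remodelling complex, rose from 34.03 and 37.6 to 103, 103 and 85.5 (log2 fold change 1.41, SE 0.25, adjusted p = 0.000518). Megf11 was at 192 and 244 in U and 384, 378 and 415 in I (log2 fold change 0.85), and Mgat4c, Rasgef1b and Npas3 had positive values of 1.08, 1.05 and 0.86 that did not pass the test or the minimum fold change. These long genes were chosen for their span and for the size of their values, after the values were seen.

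The libraries labelled ID are of cells given Dox, which should induce the CTCF transgene, together with IAA. Since Ctcf was no higher in them than in U or I, their mRNA does not show that induction, and the values below go by the label. Their comparison with I shares the 3 I libraries with that of I and U, so the values are set side by side only. In all, 845 genes (5.06%) differed between ID and I, of which 294 (1.76%) were higher and 551 (3.3%) lower in ID. Against U, 2481 genes (14.9%) differed in ID, with 934 (5.59%) higher and 1547 (9.26%) lower, and 76 (0.455%) in D, with 36 (0.216%) and 40 (0.239%). Of the 835 genes higher in I, 109 were lower in ID than in I and 439 were higher in ID than in U. Of the 989 lower in I, 131 were higher and 152 lower in ID than in I, and 736 were lower in ID than in U.

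Among genes lowered in I, the values in ID differed by promoter site and by span. These genes were chosen as low in the same I libraries, which by itself favours higher values in ID. Over all genes tested under 100 kb, the median log2 difference between ID and I was 0.04 with a site and 0.01 without. Over 100 kb it was -0.53 with a site and -0.58 without. Among genes under 100 kb that were lower in I, 81 of the 202 with a CTCF site at the promoter (40.1%) were higher in ID than in I and 0 were lower, with a median log2 difference of 0.86 between ID and I. For the 123 without a site the counts were 25 (20.3%) higher and 3 lower. Above 100 kb, 6 of 269 lowered genes with a site (2.23%) and 1 of 341 without (0.293%) were higher in ID, and 62 and 85 were lower still. Of the 44 lowered genes with the motif before the start, 20 were higher in ID, and their median was -1.66 from U to I and 0.82 from I to ID. For genes over 200 kb the medians were -1.30 from U to I, -0.76 from I to ID and -2.10 from U to ID, and the ID libraries lay at -2.05, -2.04 and -2.06 from U. The counts of 0 rest on limma at the thresholds above, in ID libraries of 16270957 to 21115575 recovered reads.

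**Figure D4:**
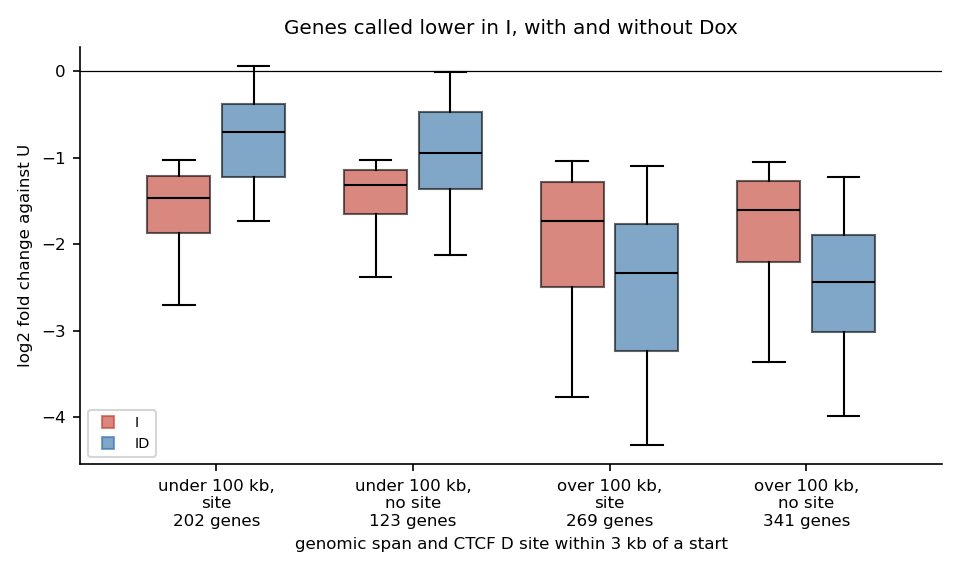
Log2 fold change against U (y axis) in I (red) and ID (blue), which share the U libraries, of genes called lower in I, by genomic span and by a CTCF site within 3 kb of a start (x axis). Lines in the boxes are medians, boxes span the quartiles and whiskers run from the 5th to the 95th percentile, and ID lies above I for spans under 100 kb and below it for spans over 100 kb.

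Prss41 and Nkd2 were higher in ID than in I. Prss41 was at 32.5, 23.5 and 19.7 in ID (log2 3.32 over I, adjusted p = 8.21e-05) and Nkd2 at 30.1, 35.2 and 34.8 (3.76, adjusted p = 5.37e-05), both between I and U. Mob3b, although over 200 kb, was at 79.6, 65.7 and 101 in ID against 11.6, 18.2 and 15.9 in I (2.36, adjusted p = 1.22e-06). For Kcnt2, at 2.41, 10.6 and 4.54 in ID, the difference from I did not pass the test (adjusted p = 0.698), nor did it for Tmtc2, at 2.41, 2.35 and 1.51 (adjusted p = 0.617), or Elavl4, at 2.41, 0 and 1.51 (adjusted p = 0.948). Among genes that rose, Dppa1 was at 7.23, 5.87 and 12.1 in ID, near U, Atoh1 at 51.8, 45.8 and 54.5 and Dio3 at 359, 338 and 334, between I and U, and Serpinb9 at 398, 336 and 307, below every I library but by less than the minimum fold change.

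Gene groups were described with 34 lists, whose median and number of calls are read against the 5% of all genes called higher, the 5.92% called lower and the median of 0.03. A member high in 1 group alone can pass the minimum mean. Genes of the integrated stress response, which the transcription factor ATF4 induces for amino acid uptake and synthesis, were lower in I. Of 30 members tested, 16 were lower in I and 0 higher, with a median of -1.11, and 29 had a negative fold change. Chac1, a glutathione-degrading enzyme gene, was at 1588 and 1490.3 in U and 278, 317 and 317 in I (log2 fold change -2.34, SE 0.10, adjusted p = 3.6e-09). The cationic amino acid transporter gene Slc7a3 stood at 1294 and 1398 and 401, 361 and 376 (log2 fold change -1.82, SE 0.08, adjusted p = 4.55e-09), and Stc2, a secreted glycoprotein gene, at 1855 and 1902 and 596, 577 and 614 (log2 fold change -1.66, SE 0.08, adjusted p = 4.55e-09). The cystine transporter gene Slc7a11 fell as well (-3.18) and spans 551 kb, whereas Chac1, Slc7a3 and Stc2 span under 13 kb.

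The other 12 of the group that fell were Gpt2, Mthfd2, Aldh18a1, Cth, Nupr1, Trib3, Slc7a5, Vldlr, Pck2, Fgf21, Slc7a1 and Slc3a2, from -1.59 to -1.09, named here after their values were seen. Atf4 mRNA was at 9698 and 9719.6 in U and 5239, 5765 and 5956 in I (-0.78) and Asns, the asparagine synthetase gene, at -0.90, both under the minimum fold change, and Ddit3 had a value of -0.15 (adjusted p = 0.367). The summed level of the list was 130846 to 132654 in U and 65809 to 69521 in I. In ID, 5 of the 16 were higher than in I and 0 lower (limma, at the same thresholds), with a median of 0.91. Nupr1, a stress-induced chromatin protein gene, was at 3484 and 2714 in U, 805, 1363 and 1269 in I and 4265, 4863 and 4746 in ID, where it exceeded U.

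Pluripotency genes split. Of 28 naive pluripotency genes, 8 fell in I, namely Tcl1 (-1.53), Nr0b1 (-1.34), Esrrb (-1.29), Prdm14 (-1.25), Klf5 (-1.23), Nr5a2 (-1.20), Fgf4 (-1.15) and Sox2 (-1.06), 1 (Dppa3) rose, and the median was -0.41. Nanog (-0.07), Klf4 (0.09) and Pou5f1 (-0.29) did not pass the thresholds. Tcl1, a coactivator of AKT, was at 1260.2 and 1107 in U, 357, 414 and 461 in I and 838, 868 and 846 in ID, and Prdm14, which keeps naive cells from differentiating, at 1851 and 1937, 759.9, 818 and 814 and 705, 661 and 676. In ID Tcl1 thus lay between I and U, and Prdm14 below every I library. Of 16 genes of the formative and primed state, 4 fell, among them Otx2, Lef1 and Cdh2, and 0 rose (limma), with a median of -0.04. Without U replicate 2 all 3 of these lost their call and 1 member was lower, without I replicate 3 it was 2, and without I replicate 1 2 members were higher.

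Genes of the two-cell stage, which mark a rare fraction of embryonic stem cells, were higher. Of 23 members tested, 16 rose and 1, Dcdc2b, fell, with a median of 1.73. Usp17lb, a deubiquitinase gene, was at 109.5 and 103 in U and 739, 723 and 717 in I (log2 fold change 2.76, SE 0.15, adjusted p = 1.48e-08), and Pramel6 at 10.6 and 8.84 and 79.4, 63.6 and 65.4 (log2 fold change 2.71, SE 0.40, adjusted p = 0.000109). The Usp17l and Zscan4 families make up 10 of the 16, and their near-identical copies share reads, so the members are not independent. In ID, 12 of the 16 were lower than in I, with Usp17lb at 235, 196 and 174. In the fit over all 4 lines 8 members were called.

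Of the proteins that work with CTCF, the cohesin genes had calls in meiotic members. Smc1b, the meiotic SMC1 subunit, fell from 1699 and 1765 to 381, 399 and 351 (log2 fold change -2.20, SE 0.11, adjusted p = 1.09e-08), and Rec8, the meiotic kleisin, rose from 1277 and 1324 to 3055, 2974 and 3053 (log2 fold change 1.22, SE 0.07, adjusted p = 1.86e-08). The other 19 cohesin subunits and regulators tested were not called, and the median of the list was -0.32. The CTCF paralogue gene Ctcfl, normally a germ cell gene, fell from 141 and 172 to 51.3, 52.3 and 53.6 (log2 fold change -1.56, SE 0.20, adjusted p = 4.25e-05). Of 40 germline and meiosis genes 5 rose and 4 fell, and without U replicate 1 3 were higher. Beside Stra8 and Prss41, Tex101, a sperm surface gene, rose (1.81) and Prdm1, which specifies germ cells, fell (-1.44).

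Gene clusters that CTCF is known to organise gave mixed counts. Of 27 Hox genes tested, 7 rose and 0 fell (limma), with a median of 0.86. Hoxc9 stood at 6.38 and 8.84 in U and 40.7, 53.4 and 67.9 in I (log2 fold change 2.66, SE 0.34, adjusted p = 3.63e-05), and for Hoxc8 there was 1 read in U against 44 in I, a ratio of U over I of 0.0383 with a counting interval from 0.000947 to 0.225. Hoxc6 and Hoxb8 rose too. Levels were low, and 4 Hox genes were called without U replicate 2 or without I replicate 3. Of 50 imprinted genes 6 rose (Dio3, Cdkn1c, Zim1, Igf2, Peg3 and Nap1l5, between 1.05 and 3.38) and 5 fell (Sfmbt2, Grb10, Sgce, Trappc9 and Ppp1r9a). Igf2 was at 2438 and 2591 in U, 5635, 5019 and 5265 in I and 2064, 2181 and 2273 in ID, and its antisense neighbour Igf2os at 53.2 and 79.5, 172, 159 and 139 and 25.3, 25.8 and 21.2. The strand setting of the counting is not known, so reads of Igf2 and Igf2os cannot be told apart where they overlap. H19, which shares enhancers with Igf2, was at 82.95 and 75.1 in U and 42.6, 34.1 and 65.4 in I (-0.78, adjusted p = 0.0335). Trappc9 and Ppp1r9a are also over 200 kb.

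Of 57 clustered protocadherins in the table, 9 passed the minimum mean, and 5 of these were lower in I. A member high in U alone can pass that minimum, as Pcdhga8 and Pcdhgb4 did, so the count is a description. Pcdhga11 was at 39.4 and 72.9 in U, 2.90, 2.27 and 1.68 in I and 10.8, 22.3 and 24.2 in ID (log2 fold change -4.07, SE 0.46, adjusted p = 1.05e-05), and Pcdhga8 had 68 reads in U against 1 in I, a ratio of 114 with a counting interval of 19.9 to 4590. Pcdhgb7 and Pcdhgb4 fell as well (-2.42 and -3.59). These genes share their last exons, so reads there can be counted for several members, and 3 of them were called without U replicate 1 and 1 without U replicate 2.

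**Figure D5:**
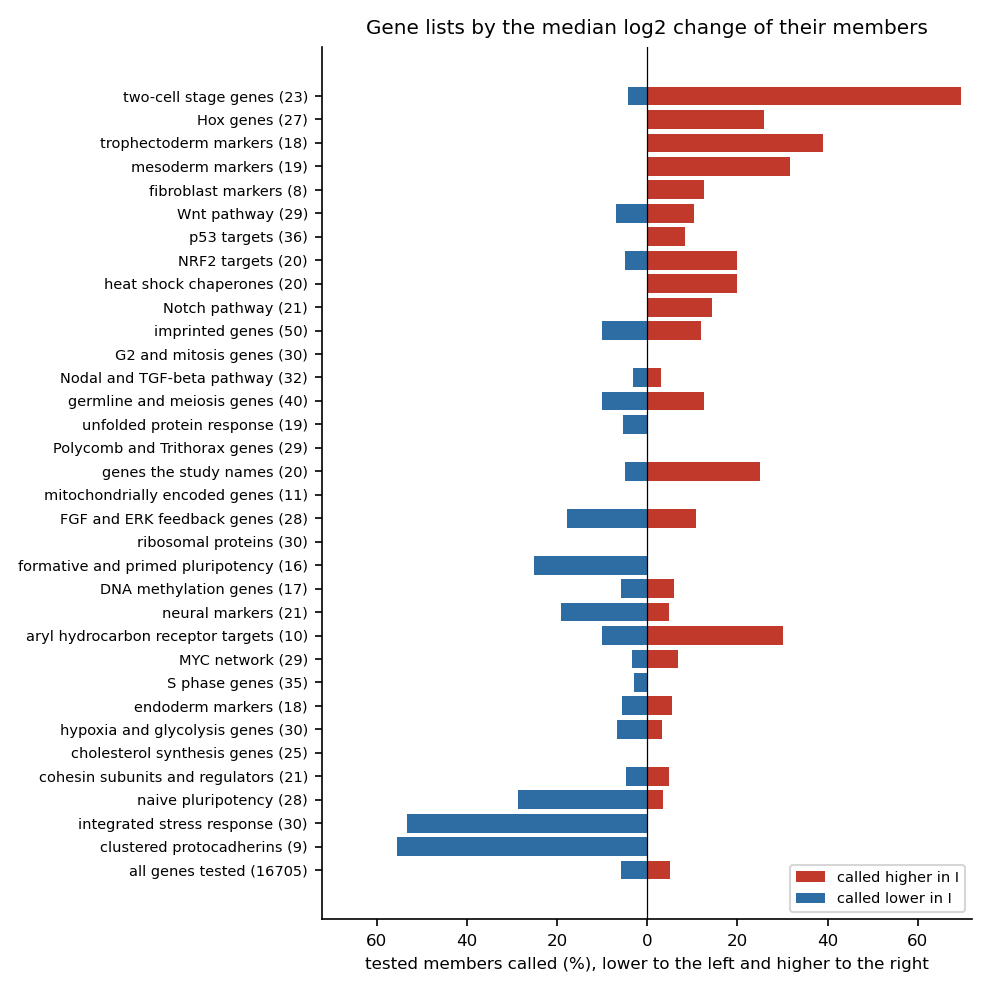
Percent of tested members called higher (red, to the right) and lower (blue, to the left) in I (x axis) for each gene list, ordered by the median log2 change, with the number tested in brackets and all genes tested in the last row. The integrated stress response has 16 lower and 0 higher of 30, and the two-cell stage genes 16 higher and 1 lower of 23.

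Markers of other cell types moved in part. Of 18 trophectoderm markers 7 rose and 0 fell (limma), with a median of 0.79 and a summed level of 16048 to 16188 in U and 20263 to 21227 in I. Cdx2, the trophectoderm determinant, was at 3.19 and 2.21 in U and 12.6, 20.4 and 17.6 in I, Gata3 at 18.1 and 16.6 and 52.3, 54.5 and 43.6, and the keratin gene Krt18 at 771 and 673 and 1557, 1664 and 1758 (log2 fold change 1.20, SE 0.10, adjusted p = 8.82e-07). Without U replicate 2, 3 were called. Of 19 mesoderm markers 6 rose, among them Cdx1 (1.83) and Snai2 (1.42), with a summed level of 3646 to 3999 in U and 5036 to 5591 in I. In endoderm markers Cxcr4 rose and Lama1 fell of 18, and the sum was 131582 to 142941 in U and 85490 to 95424 in I. In neural markers Lhx5 rose and Elavl4, Map2, Ncam1 and Sox1 fell of 21, and Map2 and Ncam1 are over 200 kb. The neural sum was 26372 to 28815 in U and 17762 to 19919 in I. Pdgfrb rose of 8 fibroblast markers, with a median of 0.50. The summed level of the fibroblast list was lower in I, at 57408 to 67140 in U and 36773 to 44465 in I. Cxcr4 lost its call without U replicate 1, Lama1 without U replicate 2 or I replicate 2, Lhx5 without U replicate 2 and Pdgfrb without I replicate 1. In bulk RNA, more cells of a type and more RNA in each cell cannot be told apart, and the part of these markers in the other results was not tested.

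Signalling lists had calls in both directions. In the FGF and ERK feedback list 3 of 28 rose and 5 fell, and the ligand gene Fgf17 dropped from 313 and 326 to 47.4, 22.7 and 41.1 and stood at 142, 189 and 176 in ID (log2 fold change -3.14, SE 0.24, adjusted p = 2.73e-07). Fosb, an immediate early gene, fell from 58.5 and 56.3 to 17.4, 17.04 and 10.1 (-1.92). Of 21 Notch pathway genes the targets Hey2 (1.62), Hey1 (1.11) and Nrarp (1.04) rose and 0 fell (limma). Of 29 Wnt pathway genes Wnt4 (2.15), Cdx1 and Cdx2 rose, and Nkd2 and Lef1 (-1.70) fell, 1 of which was called without U replicate 2, I replicate 2 or I replicate 3. The MYC network had 2 higher, Mxd4 (2.04) and Myc (1.34), and 1 lower, Mycn, which went from 2244 and 2001 to 569, 682 and 666 (log2 fold change -1.73, SE 0.09, adjusted p = 1.6e-08). Myc lost its call without U replicate 2. Of 32 genes of the Nodal and TGF-beta pathway 1 rose and 1, Fst (-1.42), fell, and without U replicate 1 3 were higher.

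Stress and metabolic lists other than the integrated stress response had smaller counts. Of 36 p53 targets 3 rose, with Ddit4l at 307 and 291 in U and 979.6, 989 and 948 in I, Bbc3, which encodes the apoptosis inducer PUMA, at 375 and 451 and 849.9, 930.4 and 874, and Zfp365 at 1.01 on the log2 scale. The list had a median of 0.35, with 30 of its 36 members above 0. Among NRF2 targets 4 of 20 rose, including Srxn1 (1.63), Nqo1 (1.58) and Osgin1 (2.64), and Slc7a11 fell. Of 10 targets of the aryl hydrocarbon receptor, Cyp1a1 rose from 57.4 and 87.3 to 281, 311 and 302 (log2 fold change 2.06, SE 0.17, adjusted p = 5.83e-07), Nqo1 and Cyp1b1 (1.46) rose and Ahrr fell. Indole compounds are known ligands of this receptor, and the part of IAA in these values was not tested. Of 20 heat shock chaperones Hspa1a, Hspa1b, Hspa2 and Cryab rose, from 1.11 to 1.49. Of 30 hypoxia and glycolysis genes Adm (1.72) rose and Pfkp and Vegfa (-1.24) fell, Atf6 fell of 19 genes of the unfolded protein response, Dppa3 rose and Tet1, which lost its call without U replicate 2 or I replicate 3, fell of 17 DNA methylation genes, and Pola1, over 200 kb, fell of 35 S phase genes. Among 30 genes of G2 and mitosis, 25 of cholesterol synthesis, 29 of Polycomb and Trithorax, 30 ribosomal proteins and 11 mitochondrially encoded genes 0 were called by limma. Of 20 genes tested that the study names, Stra8, Igf2, Adamts15, Igf2os and Cited1 rose and Steap1 fell, and since the study names them from this series they are no independent evidence.

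The same contrast in the CTCFL, LCL and CLC lines shares no library with the CTCF line. In 1 fit over all 4 lines (16480 genes), the CTCF line had 1495 calls (9.07%), 611 higher (3.71%) and 884 lower (5.36%). There I differed from U for 717 higher (4.35%) and 1013 lower genes (6.15%) in the CTCFL line, for 784 (4.76%) and 896 (5.44%) in LCL, and for 1353 (8.21%) and 1096 (6.65%) in CLC. Of the genes higher in the CTCF line that were in this fit, 374 of 807 were higher in the CTCFL line, which is 46.3% of the calls of the CTCF line and 52.2% of those of the CTCFL line. For lower genes it was 693 of 973 (71.2% and 68.4%). With LCL 300 higher (37.2% and 38.3%) and 538 lower genes (55.3% and 60%) were shared, and with CLC 443 (54.9% and 32.7%) and 628 (64.5% and 57.3%). Calls in the opposite direction were 0 in the CTCFL line, and 3 each in LCL and CLC.

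Long genes were lower in every line. Over 200 kb the median log2 fold change was -1.29 in the CTCF line in this fit, -1.65 in CTCFL, -1.27 in LCL and -1.29 in CLC, with 51%, 67.3%, 46.4% and 49.4% of 670 genes lower. Cc2d2a was at -4.47, -4.75 and -4.72 in the CTCFL, LCL and CLC lines, Prss41 at -3.39, -3.83 and -4.17, and Atoh1 at 2.62, 2.53 and 3.47. The integrated stress response list, by contrast, had 15 of 30 genes lower in the CTCF line in this fit, 0 in the CTCFL line, 4 in LCL and 2 in CLC, where 4 were higher. Its medians were -1.11, -0.19, -0.01 and -0.17. Of 20 two-cell stage genes in this fit, 8 were higher in the CTCF line, 11 in CTCFL, 4 in LCL and 7 in CLC, with medians of 1.70, 2.12, 0.75 and 1.53, and 0 were lower by limma. Differences of a list between lines were not tested.

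A test of the difference itself, as the interaction of line and IAA (adjusted p under 0.01 and a log2 difference larger than 1), passed for 61 genes against the CTCFL line (0.37%, of which 21 or 0.127% above and 40 or 0.243% below), 301 against LCL (1.83%) and 483 against CLC (2.93%). Chac1, Slc7a3 and Stc2 of the integrated stress response were among those against the CTCFL line, as were Ctcfl and Smc1b. Chac1 had fold changes of -2.09 in LCL and -1.72 in CLC, where its interaction did not pass (adjusted p = 0.636 and 0.129), and Slc7a3 had -1.04 and -2.10. Igf2, at 1.08 in the CTCF line, had values of 0.13, -0.83 and 0.87 in the other lines. Ctcfl was at -0.06, -0.16 and 0.95 there, against -1.56 in the CTCF line. The lines are separate clones and their libraries differ in depth, so line, transgene and batch cannot be told apart.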

How the data were processed

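RNA-seq was performed by the authors on polyadenylated RNA with a directional protocol, and reads were aligned with STAR v2.6 to GRCm38/mm10. The authors deposited signal values, in which each library's counts per gene were scaled by a common size factor. The program that counted reads, and its strand setting, are not given in the sources used here. For ChIP-seq the authors deposited peaks called by MACS for each replicate, with a fold enrichment ratio and a -log10 q made by the authors' peak caller for each peak, and the depth is unknown. The submitters' processing notes also name Trim Galore 0.4.4, Bowtie2, SAMtools 1.3, HTSeq and deepTools.

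A pseudocount of 1 was added before taking log2, and limma 3.58.1 (R 4.3.3, linear model with moderated variances that follow the mean) was fitted once to the 11 U, I, D and ID libraries of the CTCF line, for genes with a mean of at least 10. In U and I of this line all values up to 500 reads were whole multiples of 1 step within a tolerance of 0.1, which gave the reads used by edgeR 4.0.16 and DESeq2 1.42.0 as alternatives. Interactions were fitted over all 38 libraries. Intervals of read ratios are exact at 95% and cover counting error only. Gene spans and start sites came from GENCODE vM21, with a position for 97.4% of genes tested, and merged peaks found in both replicates counted as sites. The pipeline was tested on simulated data.

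Named genes are the 12 with the largest fold change in each direction (mean of at least 50 in the higher group, no overlap of U and I), the 8 most abundant called in each direction, up to 4 called members of each list, the 6 with the largest interaction with the CTCFL line in each direction, and Ctcf, Ctcfl and genes the study names. Names starting with Gm or ending in Rik and the like were left out of the first 2 rules. Some called members of the lists are not reported here by name. The members and lists were chosen with earlier results of these data known. Alternatives were a pseudocount of 5, no filter, a minimum mean of 50, TMM rescaling, U and I alone, a joint fit of the 4 lines, a block for the replicate number, edgeR, DESeq2, and leaving out each library.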

Additional observations from a re-analysis of the deposited data

Results flagged for a closer look

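In all, 17 named genes passed the interaction test for a different change from U to I in the CTCF line than in the CTCFL line. The test was limma with an adjusted p under 0.01 and a log2 difference larger than 1. Most of the 17 were named because their interaction was among the largest, so the count follows from that choice. Of all 16480 genes in the fit, 61 (0.37%) passed. Values are the log2 fold change in the CTCF line less that in the CTCFL line. Vav3, a guanine nucleotide exchange factor gene over 200 kb, differed by 3.56 and Fbxo32, a ubiquitin ligase gene, by 2.72. Vav3 was at 59.5 and 97.2 in U and 77.4, 69.3 and 68.7 in I of the CTCF line, and its fold changes in CTCFL, LCL and CLC were -3.64, -4.04 and -2.30. Fmn2 differed by 1.94, Mgat4c by 1.69, Gm3724 by 1.58, Mbnl3 by 1.56 and Dio3 by 1.16.

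The difference was negative, the fold change in the CTCF line being below that in the CTCFL line, for Mlph at -2.53, Ubap1l at -1.97, Cnpy1 at -1.73, the folate enzyme gene Aldh1l2 at -1.73, Mroh4 at -1.70, Chac1 at -1.67, Slc7a3 at -1.63, Stc2 at -1.61, Ctcfl at -1.502 and Smc1b at -1.10. A negative difference need not be a fall in the CTCF line, where Mlph had 64 and 64 recovered reads in U and 54, 60 and 53 in I. Ubap1l fell from 554 and 599 to 189, 203 and 153 in the CTCF line, where the libraries labelled ID were at 792, 813 and 785, and its fold changes in the other 3 lines were 0.30, 1.46 and 0.94. Stc2 had values of -0.04, -1.01 and 0.76 there. Leaving out U replicate 2 lowered the number of genes with an interaction against the CTCFL line from 21 to 6 above and from 40 to 18 below.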

How the results depend on the processing

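Under 15 alternatives, 84 of 123 named genes that were called kept their call in all those in which they were tested. Of 1789 values, 94 were no longer called and 0 reversed. A gene that an alternative did not test gave no value there and was not counted as lost, so these counts say less for genes of low level. Of the named genes that were not called, the sign changed for Adamts2 (0.043 with the replicate block and -0.27 to 0.0785 without a library), for Vav3 (-0.43 to 0.26) and for Mageb4 (-0.39 to 1.34), the last 2 without U replicate 2. Of all calls, 73% to 97.6% were shared with the alternatives. A minimum mean of 50 gave 538 genes higher, and no minimum fold change gave 2477 higher and 2691 lower. Leaving out a library gave 671 to 868 higher and 804 to 1050 lower.

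The alternatives for the classes of span, site and motif, and the minimum in I as well, were chosen after seeing the data. For genes over 200 kb the median was -1.20 with a pseudocount of 5, -1.14 with no filter, -1.15 at a minimum mean of 50 and -1.14 with a minimum in I as well. The percent lower was 37.9 with no filter, 51 in the fit over all lines, 61.2 with edgeR, 60.5 with DESeq2 and 46.4 to 56.4 without a library. For genes under 10 kb the percent higher was 5.94 with no filter, 7.87 at a minimum mean of 50, 8.17 with U and I alone, 6.94 over all lines and 6.9 to 10.7 without a library. For genes under 100 kb without a site the percent lower was 1.36 with U and I alone, 2.03 with edgeR and 1.25 to 1.82 without a library. Interactions against the CTCFL line numbered 6 to 25 above and 18 to 38 below without a library.

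The percent of genes tested, higher and lower in I with a promoter site was 23.2, 21.4 and 37 in a window of 1 kb, 30.6, 31.4 and 40.6 with the sites of ID, and 53.5, 48.1 and 62.2 with D replicate 2 alone. With D replicate 1 alone it was 39.8 of genes tested. Deviations of same-numbered U and I libraries had correlations of -0.30 and -0.20. With 2 U libraries, whose deviations from their mean mirror each other, these values cannot settle whether the numbers pair samples. With the replicate block 774 genes were higher and 926 lower, and 8.4% of genes under 10 kb were higher. Hoxb8, Fosl1 and Ahrr lost their call in most alternatives that tested them. The causes of these differences were not tested, and 2 libraries of U limit the precision of every fold change.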
